A study of Mus musculus with 6 samples.

Results

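The genes described here are the classical, non-clustered and Fat/Dachsous cadherins of the mouse striatum: the classical and atypical cadherins (Cdh and Cdhr genes), the solitary protocadherins (Pcdh genes outside the gene clusters), the Fat and Dachsous giants and the calsyntenins. The rule takes them by symbol and uses no measured value, although the family was picked with earlier results of these data known. It gave 48 of the 24841 genes in the deposited table. The tissue was dissected mouse striatum, flash-frozen in embedding compound, from which nuclei were isolated and profiled with droplet-based 3′ chemistry. Of the 6 libraries, 3 came from wild-type mice and 3 from mice labelled Celsr3 heterozygous, and all were sequenced together. The labels call the libraries of a group biological replicates and give no sex, age, strain, litter or description of the Celsr3 allele. P-values measure the spread between these libraries, whatever its source.

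Cadherins are calcium-dependent adhesion proteins of the cell surface that sort cells, hold junctions together and help match the pre- and postsynaptic sides of synapses. Classical cadherins bind catenins through their cytoplasmic tails, delta protocadherins instead contact actin and phosphatase regulators, Fat and Dachsous proteins bind each other across cells and feed into planar polarity and growth control, and calsyntenins are synaptic and vesicle membrane proteins. Celsr3, the gene that is heterozygous here, encodes a seven-pass cadherin with roles in axon guidance. Most striatal neurons are GABAergic medium spiny neurons (MSNs), either of the direct pathway (marked by the dopamine receptor Drd1, here D1) or of the indirect pathway (Drd2, here D2).

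After removal of likely doublets 47927 of 48834 nuclei were kept, 7611 to 8695 per library. Values are depth-corrected, so the original depth is unknown, and every level here is the mean of the deposited value per nucleus. The median nucleus had 2420 genes in wild-type replicate 1 and 2820 to 2996 in the rest, and D1 MSN-like nuclei had 3275 to 3501 in all 6 libraries. Nuclei were clustered without the 48 genes, so their class differences did not enter the clustering. Clusters were named X-like from marker lists, 14 classes held at least 20 nuclei in every library, and 7469 nuclei stayed unnamed. Libraries differed in composition: glutamatergic neuron-like nuclei made up 2.58% of wild-type replicate 2 and 19.8% of heterozygous replicate 1. In all, 274 cell barcodes occurred in more than 1 library.

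Celsr3 served as a check of the labels. In D1 MSN-like nuclei its level was 0.148, 0.169 and 0.178 in wild-type and 0.0795, 0.102 and 0.101 in heterozygous libraries, without overlap. The mean of the heterozygous libraries was 57.0% of that of the wild-type libraries (log2 difference -0.75 ± 0.13 SE, limma adjusted p = 0.141). This share was 61.4% among D2 MSN-like nuclei (adjusted p = 0.284) and 69.5% over all nuclei (adjusted p = 0.462), again without overlap. The difference lay in the direction of the labels but did not pass the adjustment over all genes. With array weights the D1 difference passed (adjusted p = 0.0149), as it did without wild-type replicate 1 (adjusted p = 0.0263).

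Most of the family was measurable in at least 1 class. Of the 48 genes, 35 reached a level of 0.1 per nucleus in a tested class and 22 reached 1. The class of highest level differed from gene to gene: glutamatergic neuron-like nuclei for 7 of the 35, committed oligodendrocyte precursor-like for 5, and D1 MSN-like and cholinergic interneuron-like for 4 each. D2 MSN-like nuclei were highest for 0. For 13 of the 35 every library of the highest class lay above every library of the next class, and for the rest the ranges of the first and second class overlapped (8 of these 22 were above the second within each of the 6 libraries). Ranks of classes here and below are among the 14 tested classes. In 19 of the 35 a class with too few nuclei for a test, or an unnamed cluster, had a higher mean over at least 3 libraries. Single clusters inside a tested class were not part of this count. The heat map of levels shows this spread across classes.

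**Figure D1:**
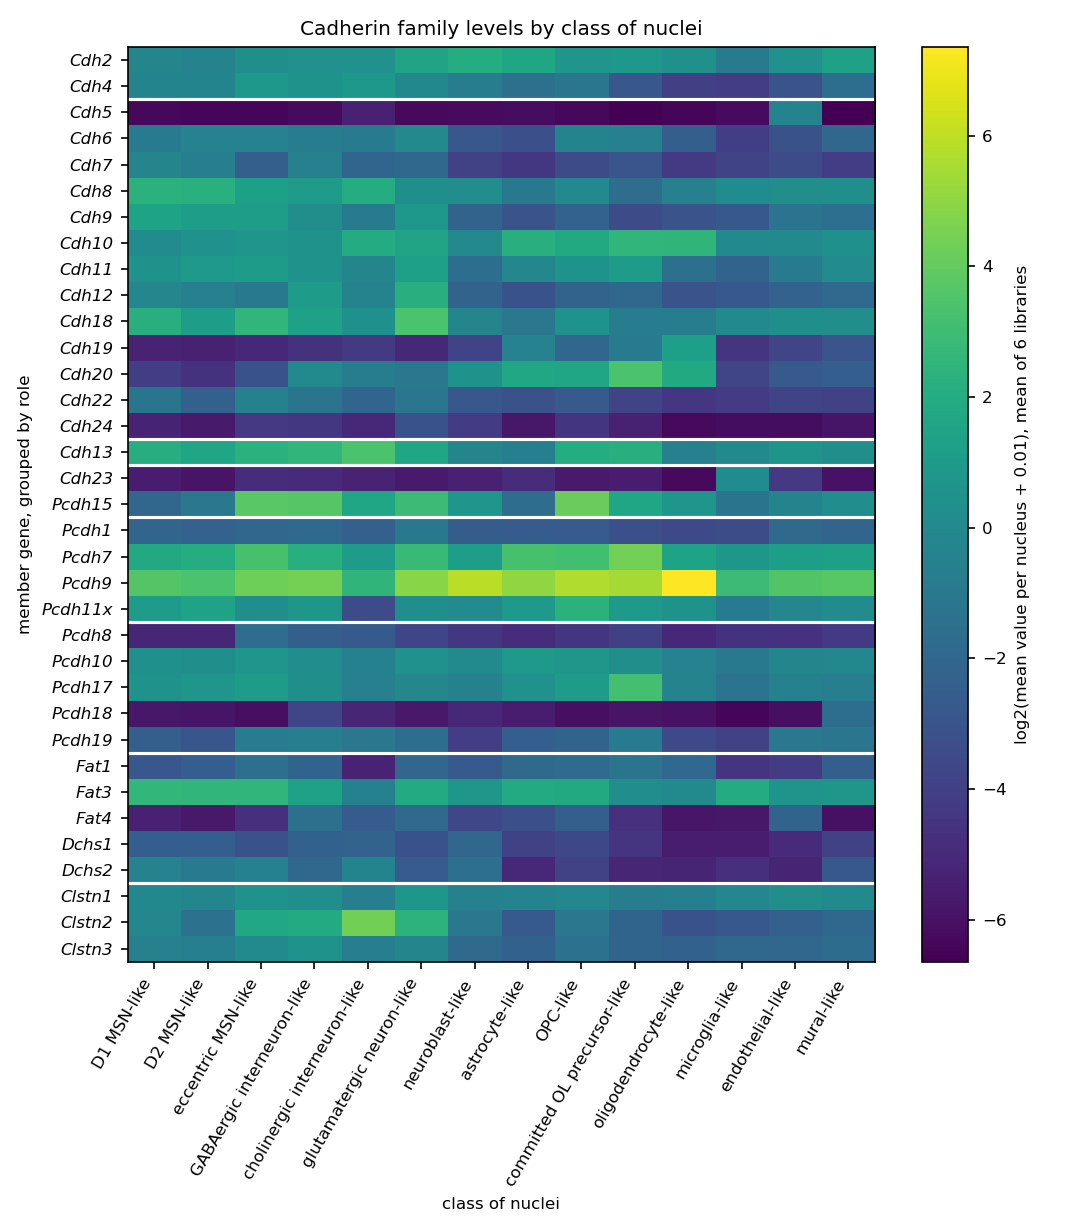
Heat map of log2(mean value per nucleus + 0.01), averaged over the 6 libraries, for the 35 members that reached 0.1 in a tested class (rows, grouped by role) in the 14 tested classes (columns). Colours compare classes along a row, and levels of different rows are not corrected for gene length. Of the classes drawn, Cdh5 stands out in endothelial-like, Cdh23 in microglia-like, Pcdh18 in mural-like and Pcdh9 in oligodendrocyte-like nuclei.

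These genes are long, and nuclear RNA holds much intronic sequence. All 48 were matched to the GENCODE M21 annotation (GRCm38). Their median span was 100.75 kb against 18.3 kb over the 24273 matched genes of the table, and 24 of the 48 spanned over 100 kb, against 11.4% of all matched genes. Across the 48 genes the span and the highest class level had a Spearman correlation of 0.79, a description over genes that share libraries. Pcdh15 (chr10:73099342-74649737) covered 1550.4 kb and Cdh12 (chr15:20449265-21589533) 1140.3 kb. Several type II cadherins share a chromosome: Cdh6, Cdh9, Cdh10, Cdh12 and Cdh18 lie on chromosome 15, and Cdh7, Cdh19 and Cdh20 on chromosome 1. Another listed gene covered an exon on the opposite strand in 13 members (Cdh5, Cdh8, Cdh9, Cdh18, Cdh24, Cdhr4, Pcdh1, Pcdh7, Pcdh8, Pcdh10, Fat1, Fat4 and Dchs2). Whether the counting used strand is not given in the sources used here, so reads of such pairs may not be separable.

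Among the type I classical cadherins, which form strong homophilic junctions, Cdh2 (N-cadherin) was highest in neuroblast-like nuclei, at 4.14 ± 0.462 (SD over n = 6 libraries, as for all class levels). Astrocyte-like nuclei followed at 3.15 ± 0.201, below every neuroblast-like library, and microglia-like nuclei were lowest at 0.554 ± 0.108. Cdh4 (R-cadherin) stood at 1.78 ± 0.528 in cholinergic interneuron-like and 1.78 ± 0.578 in eccentric MSN-like nuclei, which cannot be ordered. Cdh1, Cdh3 and Cdh15 (E-, P- and M-cadherin) stayed below 0.1 in each tested class. In classes too small for a test, Cdh3 stood at 0.667, 0.926 and 0.714 in choroid plexus-like nuclei of the 3 libraries with at least 20 of them, and Cdh1 at 0.0435 to 0.455 in fibroblast-like nuclei of 5 libraries.

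The type II cadherins, which include synaptic cadherins of many neuron types, had their highest levels in several different classes. Cdh8 had its highest class means in both MSN classes, at 4.94 ± 0.369 in D1 and 4.65 ± 0.342 in D2 MSN-like nuclei, against 0.504 ± 0.0511 in astrocyte-like nuclei. Cholinergic interneuron-like nuclei followed at 4.06 ± 1.16, with libraries from 2.48 to 5.57 that overlapped both MSN classes. Cdh8 also stood at 1.01 to 1.29 in microglia-like, 1.03 to 1.38 in endothelial-like and 1.09 to 1.59 in mural-like nuclei over the libraries. In droplets free RNA can give such values in cells that do not express a gene, and its part in low class levels was not tested, so no low level here is read as expression. Cdh9, known from hippocampal synapses, reached 2.80 ± 0.472 and Cdh7 0.818 ± 0.0697 in D1 MSN-like nuclei, their highest class. Both overlapped the next class, D2 MSN-like nuclei for Cdh9 and GABAergic interneuron-like nuclei for Cdh7. Cdh12 was highest in glutamatergic neuron-like nuclei at 4.51 ± 0.884, with every library above the next class. Cdh18 was highest there too, at 10.6 ± 4.16, but its libraries ran from 6.18 to 18.0 and overlapped those of eccentric MSN-like nuclei.

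Clusters inside the glutamatergic neuron-like class were uneven. Cdh18 stood at 27.4 ± 4.38 in cluster 16 (6 libraries), above the other clusters, and that cluster's share of the class ran from 19.0% to 49.2% over the libraries. Cdh12 was highest in cluster 28, at 11.3 ± 1.18 over 4 libraries, a cluster with no nuclei in heterozygous replicate 2. Pcdh15 was highest in cluster 33, led by Nr4a2, at 27.3 ± 3.74 (5 libraries). Class averages of these genes thus carry the mix of clusters in a library. Cdh6 (0.943 ± 0.267), Cdh11 (2.42 ± 0.504) and Cdh24 (0.104 ± 0.0472) also had their highest class mean in glutamatergic neuron-like nuclei, and Cdh22 in eccentric MSN-like nuclei (0.702 ± 0.114). Their ranges overlapped those of the next class, although Cdh22 and Cdh24 were above it within each of the 6 libraries.

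Cdh5, the endothelial junction protein VE-cadherin, stood at 0.911, 0.899 and 0.942 in wild-type and 0.722, 0.508 and 0.775 in heterozygous libraries of endothelial-like nuclei. It was listed at 0 in all 6 libraries of mural-like nuclei, and the next tested class, cholinergic interneuron-like, was at 0.0145 ± 0.0232. Outside the tested classes it was 0.369 ± 0.104 in fibroblast-like nuclei (5 libraries) and 1.90 ± 0.318 in unnamed cluster 42 (5 libraries), whose leading genes included Rgs5, a mural marker, and Cldn5, an endothelial one. Cdh23 is best known as a part of the tip link of hair cells, where it binds Pcdh15. Among the tested classes it was highest in microglia-like nuclei, at 0.933, 1.06 and 1.22 in wild-type and 1.33, 1.03 and 1.05 in heterozygous libraries. The unnamed cluster 19, led by Mrc1 and F13a1, which mark border-associated macrophages, stood close to it at 0.918 ± 0.126. The next tested class was endothelial-like at 0.0405 ± 0.0175, below every microglia-like library. Its tip-link partner was distributed otherwise: Pcdh15 had its highest class mean in OPC-like nuclei (oligodendrocyte precursor cells) at 18.0 ± 3.42. It was lowest in D1 MSN-like nuclei at 0.236 ± 0.0719. Single clusters inside the glutamatergic neuron-like and GABAergic interneuron-like classes had higher Pcdh15 means than the OPC-like class, as given above and below. The OPC-like libraries overlapped those of eccentric MSN-like nuclei (11.7 to 16.9), although OPC-like nuclei were higher within each library. Pcdh18, a delta-2 protocadherin, was highest in mural-like nuclei among the tested classes, at 0.327 ± 0.0867 and with every library above the next. Cluster 42 (0.425 ± 0.245) and fibroblast-like nuclei (0.0818 ± 0.101) overlapped it.

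The cadherin-related genes Cdhr3 and Cdhr4 were near 0 in the tested classes, at most 0.0585 ± 0.0562 for Cdhr3 (cholinergic interneuron-like) and 0.00575 ± 0.00535 for Cdhr4 (microglia-like). Cdhr3, known from ciliated airway cells, stood at 3.48 in wild-type replicate 1 and 3.41 and 2.88 in heterozygous replicates 2 and 3 of ependymal-like nuclei, the ciliated cells of the ventricle wall. Cdhr4 stood at 2.07, 1.41 and 1.85 in the same libraries, which alone held at least 20 ependymal-like nuclei. Because Cdh23 was high in microglia-like nuclei and the macrophage-marked cluster, and Cdhr3 and Cdhr4 in ependymal-like nuclei, the 250 bases before their starts (RefSeq, GRCm38.p6, 5′ to 3′ on the gene's strand) are shown, at chr10:60696491-60696740 (minus strand), chr12:33092876-33093125 (minus strand) and chr9:107992207-107992456 (plus strand). Capitals mark a match on either strand to the ETS core AGGAAG (reverse complement CTTCCT), searched in Cdh23, or to the RFX half-site GTTGCNA (reverse complement TNGCAAC), searched in the Cdhr genes.
Cdh23: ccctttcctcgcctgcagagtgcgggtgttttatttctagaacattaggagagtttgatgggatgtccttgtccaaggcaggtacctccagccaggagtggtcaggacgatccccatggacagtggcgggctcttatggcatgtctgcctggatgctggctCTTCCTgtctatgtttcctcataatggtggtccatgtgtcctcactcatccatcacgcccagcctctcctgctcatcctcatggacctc
Cdhr3: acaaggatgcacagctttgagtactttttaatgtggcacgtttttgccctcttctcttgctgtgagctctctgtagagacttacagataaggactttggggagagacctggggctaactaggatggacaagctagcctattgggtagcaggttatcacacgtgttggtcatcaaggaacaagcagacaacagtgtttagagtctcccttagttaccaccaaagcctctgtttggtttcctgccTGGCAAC
Cdhr4: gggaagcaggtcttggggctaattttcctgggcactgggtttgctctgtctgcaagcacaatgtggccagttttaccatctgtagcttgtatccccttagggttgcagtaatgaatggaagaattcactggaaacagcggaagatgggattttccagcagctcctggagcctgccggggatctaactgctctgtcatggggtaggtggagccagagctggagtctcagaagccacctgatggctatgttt
Cdh23 and Cdhr3 held 1 match each, both read as the reverse complement, and the Cdhr4 window did not hold these letters. A match is a description and not a site: the ETS core occurs in 29.6% and the RFX half-site in 8.7% of 32536 promoter windows of this length. The windows of Cdh20 (chr1:104768270-104768519) and Pcdh17 (chr14:84443313-84443562), both on the plus strand and not printed, were searched for the SOX core ACAANG (reverse complement CNTTGT). Neither held these letters, which occur in 36.2% of the windows. Promoter entries were matched for 34 of the 48 genes.

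The oligodendrocyte lineage held steep differences of level within the family. Pcdh15 was 15.8, 19.5 and 16.3 in wild-type and 13.3, 21.8 and 21.5 in heterozygous libraries of OPC-like nuclei, and 1.64 ± 0.315 in oligodendrocyte-like nuclei. Committed precursor-like nuclei, an intermediate led by Gpr17 and Bmp4, had 3.15 ± 1.14, below every OPC-like library. Pcdh11x, a delta-1 protocadherin, was highest in OPC-like nuclei too, at 5.08 ± 1.42, with libraries from 2.68 to 6.53. These overlapped the next class, D2 MSN-like nuclei (2.47 to 3.10), although OPC-like nuclei were higher within each library.

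Other members were highest in the committed precursors. Cdh20 was 10.8, 10.9 and 10.6 in wild-type and 9.11, 10.2 and 11.4 in heterozygous libraries of this class, against 2.97 ± 0.562 in OPC-like and 3.59 ± 0.378 in oligodendrocyte-like nuclei. Pcdh17, a delta-2 protocadherin that recruits the WAVE actin regulator, was 2.08 ± 0.160, 8.90 ± 1.42 and 0.752 ± 0.0612 in OPC-like, committed precursor-like and oligodendrocyte-like nuclei. Pcdh7 was 8.84 ± 1.13, 21.8 ± 3.16 and 2.79 ± 0.302 in the same order. For these 3 genes all 6 libraries of the middle class lay above all libraries of both neighbours. Cdh19 and Pcdh9 were highest at the end of the lineage, again in every library: Cdh19 was 0.238 ± 0.0539 in OPC-like and 2.39 ± 0.281 in oligodendrocyte-like nuclei, and Pcdh9 52.4 ± 6.49 and 164 ± 8.66. Cdh10 had overlapping levels in committed precursor-like (5.96 ± 1.71) and oligodendrocyte-like nuclei (5.62 ± 1.07). The plot of the lineage shows these patterns library by library.

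**Figure D2:**
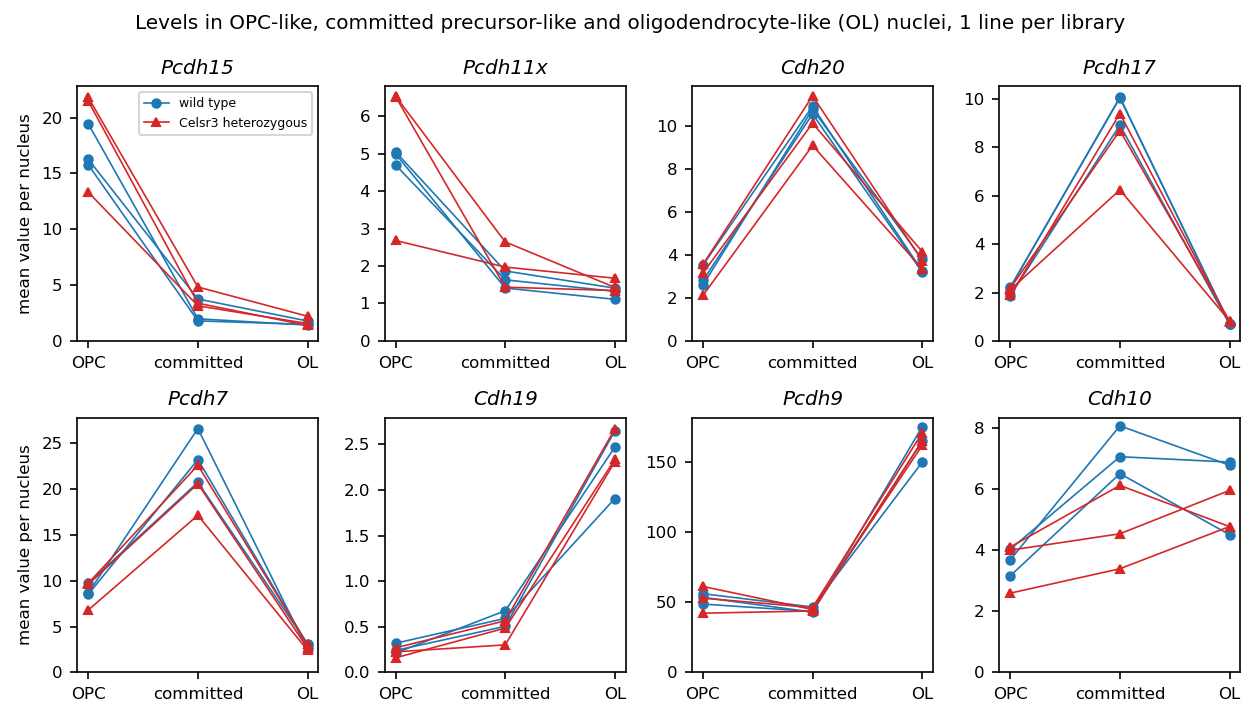
Mean value per nucleus (y axis, linear, from 0) of 8 members in OPC-like, committed precursor-like and oligodendrocyte-like (OL) nuclei, with 1 line per library (blue circles wild type, red triangles heterozygous). Cdh20, Pcdh17 and Pcdh7 were highest in the middle class in all 6 libraries, Pcdh15 at the start, and Cdh19 and Pcdh9 at the end.

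In limma, with the library as a block, 22 of 26 members tested differed between OPC-like and oligodendrocyte-like nuclei at an adjusted p under 0.05. Of these 18 were higher and 4 lower in OPC-like nuclei. Of all genes tested 43.0% differed (24.9% higher and 18.1% lower). A gene high in 1 class could pass the filter on low values through that class alone, so this and later counts describe the genes tested and not the family. Pcdh15 (log2 difference 3.45 ± 0.11 SE, adjusted p = 4.03e-10), Cdh4 (2.83 ± 0.16) and Cdh13 (2.58 ± 0.11) were most above. On the other side stood Cdh19 (-3.29 ± 0.14, adjusted p = 2.24e-09), Pcdh9 (-1.66 ± 0.11) and Cdh10 (-0.64 ± 0.10).

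The contrasts with committed precursor-like nuclei were chosen after the levels were seen. Against OPC-like nuclei 19 of 22 members differed (57.5% of all genes tested). Pcdh17 (2.08 ± 0.11, adjusted p = 4.77e-09), Cdh20 (1.84 ± 0.09) and Pcdh7 (1.30 ± 0.09) were most above, and Pcdh15 (-2.58 ± 0.16), Cdh4 (-1.88 ± 0.28) and Fat3 (-1.62 ± 0.10) most below. From committed precursor-like to oligodendrocyte-like nuclei 19 of 25 differed (52.1% of all genes tested). Of the members 16 were lower in oligodendrocyte-like nuclei (36.8% of all genes tested, where 15.3% were higher). These were led by Pcdh17 (-3.53 ± 0.11, adjusted p = 2.29e-12), Pcdh7 (-2.96 ± 0.09) and Cdh13 (-2.66 ± 0.10), while Cdh19 (2.21 ± 0.13), Pcdh9 (1.88 ± 0.09) and Cdh8 (1.22 ± 0.25) were higher.

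A cluster of 1515 nuclei with most oligodendrocyte markers was left unnamed because the committed precursor marker Enpp6 was among its leading genes. Its Cdh20 level was 7.14, its Cdh19 level 3.80 and its Pcdh9 level 154. It made up 4.20%, 3.81% and 3.38% of the wild-type and 1.48%, 1.86% and 4.19% of the heterozygous libraries.

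Astrocyte-like nuclei were compared with OPC-like nuclei. Of 28 members tested 16 differed (40.4% of all genes tested), 13 of them lower in astrocyte-like nuclei. Pcdh15, at 0.306 ± 0.101 in astrocyte-like nuclei, differed most (-5.86 ± 0.11, adjusted p = 1.05e-11), followed by Cdh6 (-2.90 ± 0.13) and Cdh13 (-2.63 ± 0.09). Cdh19 (1.58 ± 0.19), Cdh2 (1.05 ± 0.12) and Cdh10 (0.32 ± 0.09, adjusted p = 0.0121) were higher in astrocyte-like nuclei. Pcdh10, a delta-2 protocadherin, had its highest class mean in astrocyte-like nuclei (1.83 ± 0.148), overlapping OPC-like nuclei (1.71 ± 0.120).

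In the vessel wall, 3 of 17 members differed between endothelial-like and mural-like nuclei (39.6% of all genes tested). They were Cdh5 and, lower in endothelial-like nuclei, Cdh2 (-0.94 ± 0.11, adjusted p = 2.49e-06) and the mesenchymal cadherin Cdh11 (-0.91 ± 0.18, adjusted p = 0.000541). Cdh2 stood at 1.35 ± 0.204 and 2.61 ± 0.448 in these classes. With size-factor scaling 5 of 17 members were called (39.6% of all genes), and with no filter on low values 10 of 43 (13.6%).

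Direct and indirect pathway neurons, alike in shape and transmitter, differed in most of the members tested. Of 29 members 24 differed between D1 and D2 MSN-like nuclei (16 higher in D1 and 8 lower). Of all genes tested 35.7% did (27.4% higher in D1 and 8.26% lower). Without the library as a block 13 members differed (9.19% of all genes). The synaptic calsyntenin Clstn2 was 0.962, 1.09 and 1.06 in wild-type and 0.655, 0.870 and 0.766 in heterozygous libraries of D1 MSN-like nuclei and 0.302 to 0.479 in D2 MSN-like nuclei. No D2 library reached the lowest D1 library (log2 difference 1.22 ± 0.05 SE, adjusted p = 5.34e-14).

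Cdh22 was 0.338 to 0.478 in D1 and 0.137 to 0.238 in D2 MSN-like nuclei (1.16 ± 0.05, adjusted p = 6.38e-15). Cdh18 was 3.77 to 4.90 and 1.68 to 2.82 (1.01 ± 0.05, adjusted p = 7.94e-13). Both were separate in all libraries, as was Cdh13 (T-cadherin, a GPI-anchored member, 0.51 ± 0.04). Cdh20 was low in both, at 0.0334 to 0.0649 and 0.0202 to 0.0363, and its difference of 0.54 ± 0.12 became 0.30 with a pseudocount of 0.05. On the other side, Pcdh15 was 0.157 to 0.355 in D1 and 0.426 to 0.566 in D2 MSN-like nuclei, without overlap (-1.01 ± 0.08, adjusted p = 1.29e-09). The D1 clusters differed in Cdh18 and the D2 clusters in Pcdh15, as given below.

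Cdh6 (-0.50 ± 0.05), Pcdh11x (-0.40 ± 0.04), Cdh11 (-0.38 ± 0.02) and the giant cadherin Fat1 (-0.34 ± 0.08, adjusted p = 0.00130) were lower in D1 MSN-like nuclei. Cdh6 was lower in D1 within each of the 6 libraries and Fat1 within 5 of 6. Without the block neither Cdh6 (adjusted p = 0.129) nor Fat1 (adjusted p = 0.328) passed. The members that did not pass were Cdh4, Dchs1, Clstn1, Clstn3 and Fat3. Fat3, a Fat cadherin known for shaping neurites, had a difference of 0.06 ± 0.02 (adjusted p = 0.0530) at levels of 6.12 ± 0.588 and 5.87 ± 0.433.

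**Figure D3:**
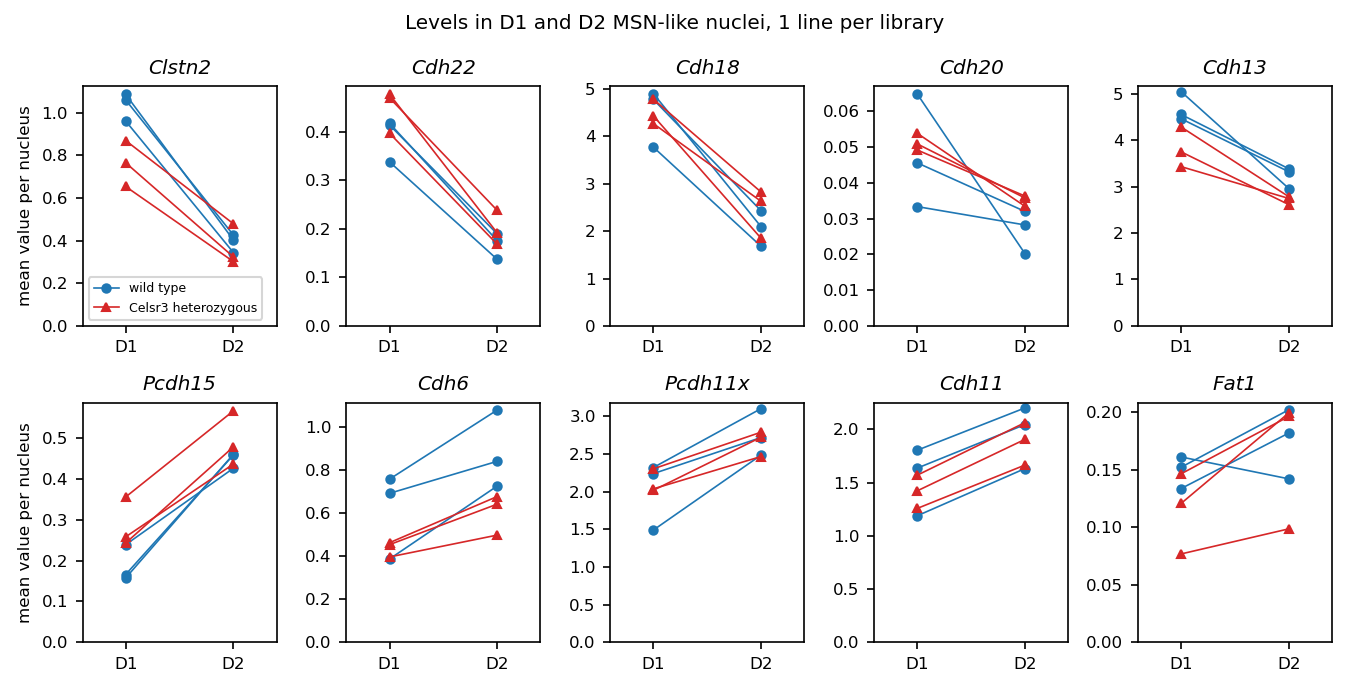
Mean value per nucleus (y axes, linear, from 0) of the 10 members with the largest called differences between D1 and D2 MSN-like nuclei (5 in each direction), with 1 line per library (blue circles wild type, red triangles heterozygous). Clstn2, Cdh22 and Cdh18 are lower in D2 in all 6 libraries and Pcdh15 is higher in all 6, while Fat1 is higher in D2 in all but wild-type replicate 3.

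Both classes were mixtures of clusters. Within D1 MSN-like nuclei Cdh18 stood at 15.2 ± 1.92 in cluster 15, led by Impg1, against 2.74 ± 0.389 in cluster 1 and 3.04 ± 0.592 in cluster 5, led by Pdyn. Clstn2 was 2.24 ± 0.586 in cluster 15 and 0.736 ± 0.149 in cluster 1. Pcdh9 had another order, at 4.40 ± 1.01 in cluster 15 and 18.9 ± 3.42 in cluster 5. Fat3 was more even, at 6.39 ± 0.576, 5.58 ± 0.499 and 6.20 ± 0.782 in clusters 1, 5 and 15. In D2 MSN-like nuclei Pcdh15 was 0.110 ± 0.0281 in cluster 0 and 1.54 ± 0.277 in cluster 7. Cluster 15 held 11.7% to 15.1% of D1 and cluster 7 21.3% to 32.8% of D2 MSN-like nuclei over the libraries. Cluster 0 held 67.2% to 78.7% of D2 MSN-like nuclei, and its Pcdh15 level lay below the D1 class mean of 0.236 ± 0.0719. The D1 against D2 differences of Pcdh15 and Cdh18 thus carry the levels of clusters 7 and 15. No contrast of single clusters is given here.

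In GABAergic interneuron-like nuclei 27 of 32 members differed from the mean of D1 and D2 (69.1% of all genes tested). Of these 19 were higher and 8 lower, where 45.7% of all genes tested were higher and 23.4% lower. Pcdh15 (5.10 ± 0.11, adjusted p = 1.57e-12), Cdh20 (4.27 ± 0.13) and Fat4 (4.06 ± 0.14, or 2.69 with a pseudocount of 0.05) were most above. Dchs2 (-1.30 ± 0.11), Cdh8 (-1.24 ± 0.08) and Fat3 (-1.22 ± 0.08, adjusted p = 2.10e-08) were most below. Fat4 and Dchs1 encode a receptor and ligand pair. Of the tested classes Fat4 had its highest mean in GABAergic interneuron-like (0.353 ± 0.0716), Dchs1 in neuroblast-like (0.237 ± 0.0498) and Dchs2 in cholinergic interneuron-like nuclei (0.796 ± 0.0880), none separate from the next class. Fat4 also stood at 0.374 ± 0.161 in fibroblast-like (5 libraries) and Dchs1 at 0.471 ± 0.0493 in ependymal-like nuclei (3 libraries), and Dchs2 at 1.08 ± 0.123 in the unnamed cluster 24.

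Interneuron clusters differed in turn. Pcdh15 stood at 27.3 ± 3.29 in cluster 25, which had Kit and Lgr5 among its leading genes, and at 5.35 to 9.53 in the other 4 clusters. Fat3 (7.33 ± 0.682) and Cdh11 (4.01 ± 0.743) were highest in cluster 35, led by Nos1 with Npy and Sst. Cdh13 was highest in cluster 29 at 11.0 ± 1.63, a cluster with no nuclei in heterozygous replicate 1. Clstn3 reached 1.42 ± 0.129 in GABAergic interneuron-like nuclei as a whole, every library above the next class. Pcdh19, the protocadherin of an X-linked epilepsy, had its highest mean there too (0.632 ± 0.151), overlapping eccentric MSN-like nuclei (0.589 ± 0.232).

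Glutamatergic neuron-like nuclei had 29 of 33 members differing from the MSN mean (68.2% of all genes tested). Pcdh15 (4.43 ± 0.10, adjusted p = 2.38e-10), Fat4 (3.50 ± 0.22, or 2.23 with a pseudocount of 0.05) and Cdh20 (3.26 ± 0.10) were most above, and Dchs2 (-2.25 ± 0.28), Cdh8 (-1.93 ± 0.09) and Cdh7 (-1.54 ± 0.15) most below. Clstn1 (1.68 ± 0.161) and the delta-1 protocadherin Pcdh1 (0.480 ± 0.0661) had their highest class mean there, Pcdh1 with every library above the next class. Eccentric MSN-like nuclei, a smaller MSN type with Otof and Casz1, had 25 of 29 differing (43.5% of all genes tested). Pcdh15, at 13.9 ± 1.85 (5.27 ± 0.09, adjusted p = 2.02e-15), Pcdh8 (3.53 ± 0.16) and Clstn2 (2.36 ± 0.08) were most above and Cdh7 (-1.99 ± 0.10), Pcdh11x (-1.11 ± 0.15) and Cdh8 (-1.01 ± 0.08) most below. The contrasts of these 3 classes share the D1 and D2 values.

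Cholinergic interneuron-like nuclei, the rare tonically active cells marked by Chat, had the highest Clstn2 of the tested classes: 19.2, 24.3 and 18.1 in wild-type and 25.2, 19.8 and 17.3 in heterozygous libraries. The next class, glutamatergic neuron-like, stood at 5.40 ± 0.946, below every one of these libraries. Cdh13 also had its highest class mean in this class (10.3 ± 1.60). In a contrast chosen after the levels were seen, 24 of 30 members differed from GABAergic interneuron-like nuclei (39.1% of all genes tested). Of these 19 were lower (23.7% of all genes tested, where 15.4% were higher). Clstn2 (2.42 ± 0.09, adjusted p = 2.29e-09), Dchs2 (1.63 ± 0.13) and Cdh10 (1.36 ± 0.13) were most above. Pcdh11x (-4.31 ± 0.17), Fat1 (-3.45 ± 0.61, or -2.05 with a pseudocount of 0.05) and Pcdh15 (-2.04 ± 0.15) were most below. Pcdh11x was 0.0400 to 0.211 in cholinergic and 1.29 to 2.45 in GABAergic interneuron-like nuclei, without overlap. The class had 25 to 40 nuclei per library, which limits its precision.

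In 13 members no tested class reached 0.1. Cdh1, Cdh15, Cdh16, Cdh17, Fat2, Cdhr2 and Cdhr4, several of them best known from epithelia, muscle or cerebellum, did not exceed 0.0124 in any tested class. The highest class means of Cdh3, Cdh26, Cdhr1, Cdhr3, Pcdh12 and Pcdh20 lay between 0.0159 and 0.0795. Pcdh12, an endothelial protocadherin, stood at 0.0318 ± 0.0318 in endothelial-like and 0.0370 ± 0.0508 in mural-like nuclei, which overlapped. Members that reached 0.1 had a median span of 153.5 kb and the others 35.2 kb, so length and abundance cannot be told apart here.

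The genotype comparison asked whether the level of other cadherins differed in mice heterozygous for Celsr3. With 3 libraries a side, limma called 0 members at an adjusted p under 0.05 in all nuclei and in each of the 14 classes. Of all genes tested it called 0% in all nuclei, 0.0149% in D1 and 0.00785% in D2 MSN-like nuclei. For D1 MSN-like nuclei, 6 of 30 members had an unadjusted p under 0.05 (9.81% of all genes tested) and 7 did not overlap between groups (16.3%). For D2 MSN-like nuclei, 6 of 28 had an unadjusted p under 0.05 (8.61%) and 5 did not overlap (14.5%). Over all nuclei these counts were 5 of 36 (9.92%) and 5 (19.2%). With array weights limma called 3 of 30 members in D1, where 3.58% of all genes passed, and 2 of 28 in D2 MSN-like nuclei (1.29%). Without wild-type replicate 1 it called 4 in D1 (1.61%). The plot of genotype differences gives the 28 members tested in both MSN classes.

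**Figure D4:**
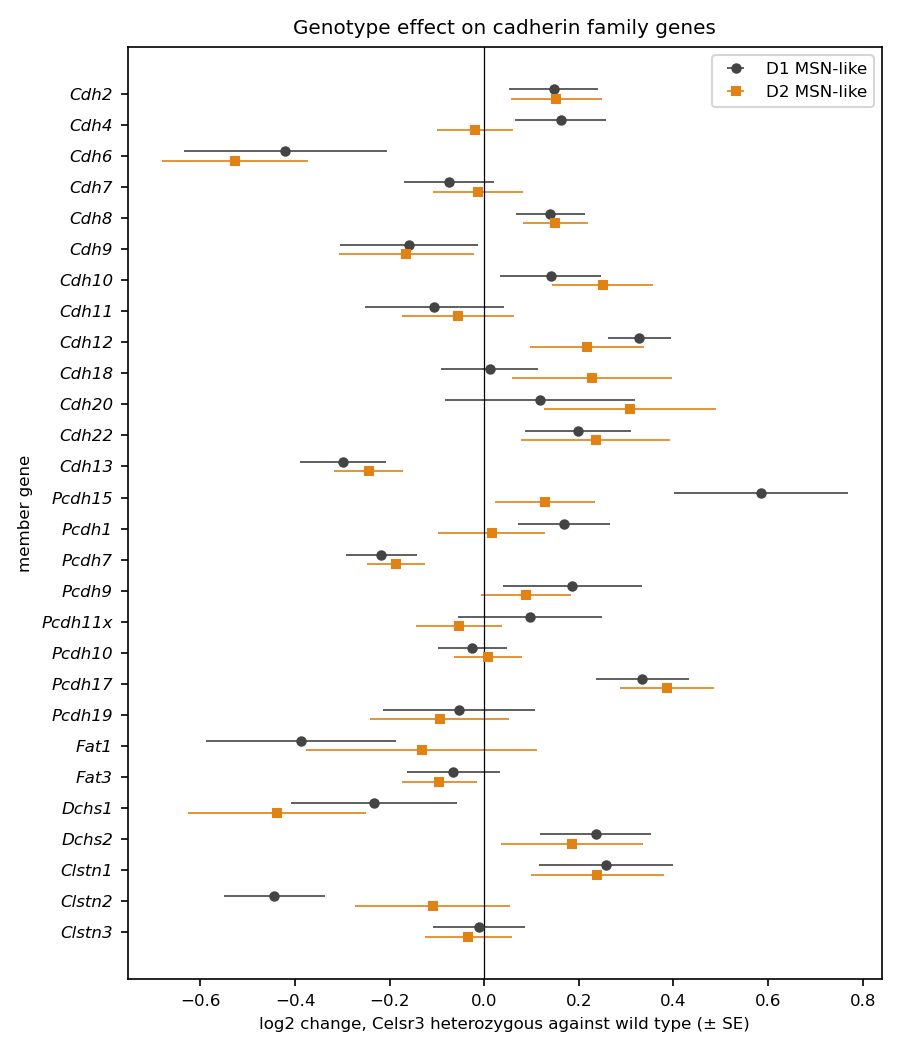
Log2 difference, heterozygous against wild type (x axis, ± SE), of the 28 members tested in both D1 (circles) and D2 (squares) MSN-like nuclei. Pcdh17 and Cdh13 lay on the same side in both classes, Clstn2 was -0.44 in D1 and -0.11 in D2, and none passed the adjusted threshold.

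In D1 MSN-like nuclei the 3 members of smallest p were Cdh12, Clstn2 and Pcdh17. Cdh12 was 0.794, 0.797 and 0.755 in wild-type and 0.999, 0.969 and 0.984 in heterozygous libraries. The groups did not overlap, with SDs of 0.0238 and 0.0153 (log2 difference 0.33 ± 0.07 SE, adjusted p = 0.214). Clstn2, whose values stand above, was lower in each heterozygous library than in any wild-type one (-0.44 ± 0.11, adjusted p = 0.253). Pcdh17 was 1.18, 1.34 and 1.35 in wild-type and 1.73, 1.76 and 1.41 in heterozygous ones (0.33 ± 0.10, adjusted p = 0.347). Cdh12 and Clstn2 passed with array weights (adjusted p = 0.0291 and 0.0430) and without wild-type replicate 1 (adjusted p = 0.0440 and 0.0492).

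In these D1 MSN-like nuclei, of the 12 oligodendrocyte markers 11 were lower in the heterozygous mean, with a summed level of 5.20 to 6.22 in wild-type and 3.55 to 6.85 in heterozygous libraries. Of the 11 microglia markers 8 were lower, with a sum of 1.13 to 1.24 and 1.02 to 1.07. The sum of the 9 cholinergic markers, the class in which Clstn2 was highest, was 0.388 to 0.562 in wild-type and 0.349 to 0.366 in heterozygous libraries. Here 7 of 9 were lower, and Slc18a2 gave 47.9% of the sum. Of the eccentric MSN markers 7 of 10 were higher, while their sum was 3.19 to 3.74 in wild-type and 2.78 to 3.22 in heterozygous libraries. Of the OPC markers 7 of 11 were lower, and of the glutamatergic ones 6 of 11. In these lists 0 markers were at 0 throughout, and their part in the D1 values was not tested.

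Other members without overlap in D1 MSN-like nuclei, chosen after their values were seen, were Cdh13 (-0.30 ± 0.09, adjusted p = 0.362), Pcdh7 (-0.22 ± 0.07, adjusted p = 0.398), Pcdh15 (0.59 ± 0.18, adjusted p = 0.380) and Pcdh1 (0.17 ± 0.10, adjusted p = 0.587). Cdh13 was 5.04, 4.55 and 4.46 in wild-type and 3.43, 3.75 and 4.28 in heterozygous ones. Pcdh15 was 0.166, 0.157 and 0.239 in wild-type and 0.258, 0.355 and 0.243 in heterozygous ones, so its heterozygous levels began just above the highest wild-type library. This level is low beside the 13.9 ± 1.85 of eccentric MSN-like nuclei.

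In D2 MSN-like nuclei Pcdh17 had the smallest p, at 1.37, 1.37 and 1.33 in wild-type and 1.79, 2.04 and 1.53 in heterozygous ones (0.39 ± 0.10, adjusted p = 0.284). Cdh6 was 0.725, 1.08 and 0.839 in wild-type and 0.497, 0.641 and 0.676 in heterozygous ones (-0.53 ± 0.15, adjusted p = 0.351). Cdh13 was 2.96, 3.38 and 3.32 in wild-type and 2.74, 2.61 and 2.78 in heterozygous ones (-0.24 ± 0.07, adjusted p = 0.357). None of the 3 overlapped between groups, and Pcdh17 and Cdh13 passed with array weights (adjusted p = 0.0423 for both). D1 and D2 values come from the same libraries and are not independent. The summed level of the 12 oligodendrocyte markers in D2 MSN-like nuclei was 5.97 to 6.51 in wild-type and 4.07 to 7.54 in heterozygous libraries, 12 of 12 lower in the heterozygous mean and 0 at 0. Of the glutamatergic markers 9 of 11 were higher, with a sum of 3.73 to 4.89 in wild-type and 4.35 to 5.21 in heterozygous libraries. Higher were also 5 of 9 cholinergic, 5 of 10 eccentric MSN, 5 of 11 microglia and 4 of 11 OPC markers. The part of these markers in the D2 values was not tested. The plot of library values shows 6 of the genes in both classes.

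**Figure D5:**
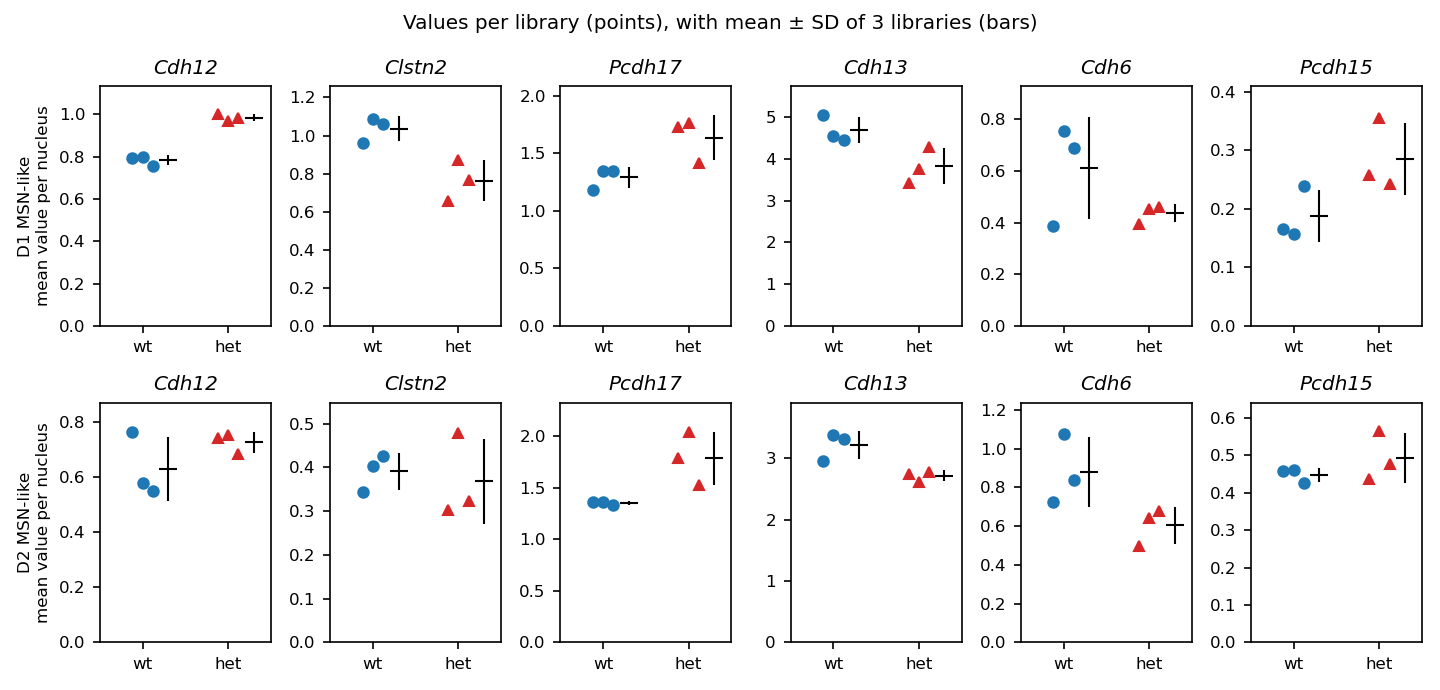
Mean value per nucleus of 6 members in D1 and D2 MSN-like nuclei for the 3 wild-type (wt) and 3 heterozygous (het) libraries, with points for libraries and the mean ± SD of each group. Axes are linear and start at 0. In D1, Cdh12 lay between 0.755 and 0.797 in wild-type and between 0.969 and 0.999 in heterozygous libraries.

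Whether the genotype difference itself differed between D1 and D2 MSN-like nuclei was tested with an interaction term. Of 29 members 0 passed (0.0153% of all genes tested did) and 4 had an unadjusted p under 0.05 (5.06%). Clstn2 had the smallest p, with a difference of -0.34 ± 0.08 between the effects (adjusted p = 0.343). Pcdh15 followed at 0.46 ± 0.13 (adjusted p = 0.706), then Cdh4 at 0.18 ± 0.06 and Cdh18 at -0.22 ± 0.09 (adjusted p = 0.927 and 0.942). Clstn2 in D2 MSN-like nuclei was 0.344, 0.403 and 0.427 in wild-type and 0.302, 0.479 and 0.324 in heterozygous ones, which overlapped. Leaving out wild-type replicate 3 gave 1 called member (0.0456% of all genes) and leaving out heterozygous replicate 3 gave 2 (0.160%).

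Over all nuclei the 3 members of smallest p were Cdh18, Pcdh15 and Cdh24, none overlapping between groups. Cdh18 was 2.91, 2.54 and 2.94 in wild-type and 3.36, 3.97 and 3.62 in heterozygous ones (0.38 ± 0.10, adjusted p = 0.450). Pcdh15 was 2.64, 2.61 and 3.13 in wild-type and 3.30, 3.91 and 3.58 in heterozygous ones (0.37 ± 0.11, adjusted p = 0.462). Cdh24 was near the filter, at 0.0168 to 0.0181 in wild-type and 0.0232 to 0.0390 in heterozygous libraries (0.48 ± 0.16, adjusted p = 0.468). All wild-type libraries lay below the filter mean of 0.02 and all heterozygous ones above it. Cdh24 thus entered the test through the heterozygous group, and its lack of overlap is not read as a result. Values over all nuclei carry the mix of classes, and taken alone they do not separate fewer cells of a type from less RNA per cell. Counted nuclei gave glutamatergic neuron-like shares of 7.18 ± 4.44% in wild-type and 9.51 ± 9.07% in heterozygous libraries (mean ± SD). Eccentric MSN-like shares were 2.13 ± 0.39% and 2.65 ± 1.36%, and OPC-like shares 2.15 ± 0.88% and 1.69 ± 1.47%. In the heterozygous mean of all nuclei 12 of 12 oligodendrocyte markers (summed level 41.5 to 49.0 in wild-type and 24.0 to 48.8 in heterozygous libraries), 11 of 11 microglia markers (summed level 3.68 to 4.29 in wild-type and 3.05 to 3.37 in heterozygous libraries) and 9 of 11 OPC markers (summed level 7.43 to 9.10 in wild-type and 6.18 to 10.0 in heterozygous libraries) were lower. Of the glutamatergic markers 8 of 11 were higher (summed level 4.8 to 6.61 in wild-type and 4.81 to 7.53 in heterozygous libraries), of the eccentric MSN markers 8 of 10 (3.51 to 4.44 in wild-type and 3.64 to 5.00 in heterozygous libraries) and of the cholinergic markers 6 of 9, and 0 of these markers were at 0 throughout. Cdh18 had its highest class means in glutamatergic neuron-like (10.6 ± 4.16) and eccentric MSN-like nuclei (6.01 ± 2.25), and Pcdh15 stood at 13.9 ± 1.85 in the latter. The highest class mean of Pcdh15 was in OPC-like nuclei (18.0 ± 3.42), of whose markers 9 of 11 were lower. The part of these markers in the values over all nuclei was not tested. With the same weight for each class the differences were 0.23 for Cdh18, 0.13 for Pcdh15 and 0.17 for Cdh24. That of Cdh24 was 0.30 without heterozygous replicate 3 and 0.22 with a pseudocount of 0.05. One unnamed cluster with Cdh18 at 10.8 and Pcdh15 at 11.1 made up 11.4% of heterozygous replicate 2, 0.753% and 4.22% of the other heterozygous libraries and 0.916% to 3.84% of the wild-type ones. Its part in the result was not tested.

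In each other class the member of smallest p is given, and none passed. In endothelial-like nuclei 1 of 20 members had an unadjusted p under 0.05 (4.40% of all genes tested) and 1 did not overlap (10.1%). Cdh5, whose values stand above, was lower in every heterozygous library (-0.47 ± 0.18, adjusted p = 0.928), and the difference was -0.29 without heterozygous replicate 2. In astrocyte-like nuclei 4 of 29 members had an unadjusted p under 0.05 (6.38% of all genes tested) and 4 did not overlap (12.4%). Cdh20 was 3.26, 3.69 and 3.85 in wild-type and 2.53, 2.98 and 2.91 in heterozygous ones (-0.36 ± 0.10, adjusted p = 0.560). Astrocyte clusters differed in Cdh20 (3.03 ± 0.443 in cluster 2, 4.38 ± 0.801 in cluster 9 and 1.39 ± 0.156 in cluster 21). Heterozygous replicate 1 had 84.5% of its astrocyte-like nuclei in cluster 2, where the others had 44.8% to 65.9%. With these clusters given equal weight the Cdh20 difference was -0.34.

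In committed precursor-like nuclei 2 of 18 members had an unadjusted p under 0.05 (6.95% of all genes tested) and 2 did not overlap (12.3%). Cdh10 was 6.52, 7.07 and 8.09 in wild-type and 3.40, 4.55 and 6.13 in heterozygous ones (-0.66 ± 0.20, adjusted p = 0.558). For OPC-like nuclei the counts were 1 of 23 (3.96%) and 2 without overlap (9.52%). Cdh4 was 0.304, 0.363 and 0.328 in wild-type and 0.760, 0.468 and 0.440 in heterozygous ones (0.69 ± 0.25, adjusted p = 0.914). Its highest library, heterozygous replicate 1, had 25 OPC-like nuclei, and the difference was 0.44 without it.

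Among interneurons, 1 of 30 members had an unadjusted p under 0.05 in GABAergic (5.69% of all genes tested) and 1 of 10 in cholinergic interneuron-like nuclei (4.63%). The groups did not overlap for 2 (11.0%) and 1 (8.85%). Pcdh8 in GABAergic interneuron-like nuclei was 0.233, 0.188 and 0.232 in wild-type and 0.162, 0.0899 and 0.162 in heterozygous ones (-0.66 ± 0.23, adjusted p = 0.694, or -0.40 without heterozygous replicate 2). Cdh18 in cholinergic interneuron-like nuclei was 0.520, 1.48 and 0.690 in wild-type and 1.61, 1.50 and 2.08 in heterozygous ones (1.07 ± 0.35, adjusted p = 0.950). Cdh10 in glutamatergic neuron-like nuclei (0.33 ± 0.14, adjusted p = 0.922) and Fat3 in eccentric MSN-like nuclei (0.38 ± 0.21, adjusted p = 0.995) overlapped between groups. The Fat3 difference was 0.16 without heterozygous replicate 1 and 0.60 without heterozygous replicate 3. In these 2 classes 1 of 33 (5.31%) and 0 of 27 members (5.10%) had an unadjusted p under 0.05.

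Cdh11, the mesenchymal cadherin, was the member of smallest p in both mural-like and neuroblast-like nuclei. It was 0.933, 0.833 and 0.837 in wild-type and 0.974, 1.36 and 1.45 in heterozygous ones of mural-like nuclei (0.51 ± 0.21, adjusted p = 0.871) and 0.303, 0.167 and 0.204 in wild-type and 0.50, 0.446 and 0.318 in heterozygous ones of neuroblast-like nuclei (0.90 ± 0.29, adjusted p = 0.790). The groups did not overlap in either class, which held for 1 of 14 (9.69% of all genes tested) and 1 of 20 members (10.2%). An unadjusted p under 0.05 was reached by 1 (4.78%) and 1 (5.08%).

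In 12 of the 14 classes more members had a positive than a negative genotype difference, with none called. The classes come from the same libraries and are not independent of each other. Among the 12 were astrocyte-like (22 of 29, median 0.08 against 0.03 over all genes tested) and GABAergic interneuron-like nuclei (22 of 30, 0.08 against 0.02). Endothelial-like (15 of 20, 0.09 against 0.01) and mural-like nuclei (11 of 14, 0.13 against 0.04) were others. D1 MSN-like (16 of 30, 0.05 against 0.06) and glutamatergic neuron-like nuclei (17 of 33, 0.02 against 0.03) were also among the 12. In both the members' median lay below that of all genes. The share of all genes with a positive difference is not given here. The exceptions were D2 (14 of 28) and eccentric MSN-like nuclei (12 of 27). The median over all genes tested was itself above 0 in 13 of the 14. With size-factor scaling the majority was positive in 9 classes, no longer in OPC-like (from 13 of 23 to 7 of 22), committed precursor-like, D1 MSN-like and glutamatergic neuron-like nuclei, but now in eccentric MSN-like nuclei (14 of 27). Without wild-type replicate 1 it was positive in 10, and the astrocyte-like count became 15 of 29 (median 0.01 in place of 0.08). The GABAergic interneuron-like count became 17 of 30 without that library and 16 of 30 without heterozygous replicate 2. Its median was 0.02 in each of these settings. Microglia-like and oligodendrocyte-like nuclei had the highest shares in the main fit, which were not tested against the other classes. With array weights OPC-like nuclei had 20 of 23, above the oligodendrocyte-like share. In microglia-like nuclei 18 of 19 were positive, with a median of 0.18 against 0.01 over all genes tested. Here 3 members had an unadjusted p under 0.05 (5.68% of all genes) and 3 did not overlap (10.8%). Cdh2 was 0.506, 0.395 and 0.514 in wild-type and 0.711, 0.612 and 0.585 in heterozygous ones (0.43 ± 0.16, adjusted p = 0.813). With size-factor scaling the count was 18 and the median 0.16, and without wild-type replicate 1 they were 14 and 0.06. Array weights gave a median of 0.11. The summed level of the 11 microglia markers in these nuclei was 60.9 to 63.9 in wild-type and 47.5 to 59.1 in heterozygous libraries, 9 of 11 lower in the heterozygous mean and 0 at 0. Of the oligodendrocyte markers 10 of 12 were lower, with a sum of 25.2 to 27.1 in wild-type and 15.6 to 34.6 in heterozygous libraries. In the cholinergic, eccentric MSN, OPC and glutamatergic lists 6 of 9, 6 of 10, 6 of 11 and 6 of 11 were higher. The part of these markers in the members' values was not tested.

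In oligodendrocyte-like nuclei 23 of 27 members had a positive difference, with a median of 0.14 against 0.03 over all genes tested, and 21 did with size-factor scaling. The count was 19 with array weights and without heterozygous replicate 1 or 2. Without heterozygous replicate 3 it was 24, with a median of 0.21. Of these members 2 had an unadjusted p under 0.05 (5.51% of all genes) and 4 did not overlap (10.4%). Clstn3 was 0.162, 0.165 and 0.191 in wild-type and 0.218, 0.226 and 0.211 in heterozygous ones (0.32 ± 0.12, adjusted p = 0.820). The summed oligodendrocyte markers overlapped, at 152 to 180.0 in wild-type and 140.0 to 187 in heterozygous libraries. Of the eccentric MSN markers 8 of 10 were higher in the heterozygous mean (0.725 to 0.769 in wild-type and 0.679 to 0.920 in heterozygous libraries) and of the microglia markers 8 of 11 were lower (0.838 to 0.946 in wild-type and 0.714 to 0.858 in heterozygous libraries). In the cholinergic, OPC and glutamatergic lists 4 of 9, 5 of 11 and 6 of 11 were higher, and the part of these markers was not tested.

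Partners of these proteins were counted from textbook lists. Of 16 cytoplasmic partners (catenins, plakoglobin, vinculin, afadin and others) 15 were tested in D1 MSN-like nuclei, 0 passed and 2 had an unadjusted p under 0.05, as did 9.81% of all genes, with a median difference of 0.03. Of 4 nectins 2 were tested and 0 passed, with a median of -0.23. Of 14 Hippo, WAVE and protease partners 12 were tested, 0 passed and 3 had an unadjusted p under 0.05 (again against 9.81%), with a median of 0.09 where the median over all genes was 0.06. Neither in D2 MSN-like nuclei nor over all nuclei did a gene of the 3 lists pass (0 called by limma). In D2 the medians were 0, -0.11 and 0.07, and over all nuclei 0.04, 0.04 and 0.08. Ctnna3, an alpha-catenin named after its values were seen, was 14.1, 14.4 and 14.4 in wild-type and 12.4, 11.1 and 9.93 in heterozygous ones of D1 MSN-like nuclei (-0.36 ± 0.08, adjusted p = 0.230). In D2 MSN-like nuclei it was 14.4, 13.6 and 13.4 in wild-type and 12.1, 10.5 and 9.23 in heterozygous ones (-0.38 ± 0.10, adjusted p = 0.265). The groups did not overlap in either class, and with array weights the adjusted p was 0.0266 in D1 and 0.0388 in D2 MSN-like nuclei. The difference was not confined to these classes. It was -0.49 in OPC-like, -0.38 in eccentric MSN-like and -0.38 in neuroblast-like nuclei, and 0.24 in mural-like nuclei, none called. Over all nuclei it was -0.34, and with array weights -0.22 (limma adjusted p = 0.206).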

How the data were processed

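Nuclei of 3 wild-type and 3 Celsr3 heterozygous striatum libraries were read from 1 table of 24841 genes and 48834 nuclei. Per the submitters' processing notes, Cell Ranger, Seurat 4.1 and mm10/GRCm38 were used, with no role or order given. The deposited values were handled as a score: they look like UMI values corrected for depth and rounded, since totals ran from 4523 to 10638 (CV 10.7%) and 10.0% of nuclei held rare genes (mean below 0.05) at 2 or 3 but at no point at 1. No counting intervals are given. The members, lists and tests were chosen with earlier results of these data known.

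The 52 clusters came from 2000 variable genes without the members, 30 principal components, 15 neighbours and Leiden partitioning (resolution 1.0; igraph 0.11.9, Python 3.11.15). A name drew on 196 markers and needed at least 3 markers of a class 2-fold above other nuclei at a mean of 0.1, with 40% of its markers or 1 among the top 10 genes, and no rival class as strong. Nuclei with a doublet score above 0.25 and clusters with over 40% of them were left out (907, 1.86%). The naming and doublet limits were chosen with the clusters in view, before any genotype comparison.

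Library means were transformed as log2(mean + 0.01), which understates the change of low genes, and tested with limma 3.58.1 (trended, R 4.3.3), without covariates for genotype and with the library as a block between classes. Genes needed a mean of 0.02 and a summed value of 30, limits that single libraries of a tested gene could miss. Adjusted p is Benjamini-Hochberg over all genes tested, threshold 0.05. The genotype fit was tested on simulated data, but the outcome is not given here and no result rests on it. Same-numbered libraries correlated at -0.0358, 0.141 and -0.0786 in their deviations from group means, and no label ties the numbers together, so they were not taken as pairs. Named genes were every member by level, the 3 of smallest p in all, D1 and D2 nuclei (1 in other classes), and the 3 largest called per direction between classes (5 for D1 against D2).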

Additional observations from a re-analysis of the deposited data

Results flagged for a closer look

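Members were flagged where the groups did not overlap in opposite directions in different classes. Cdh13 had every heterozygous library above every wild-type library in microglia-like nuclei (log2 difference 0.17, limma adjusted p = 0.882) and below every one in D1 (-0.30) and D2 MSN-like nuclei (-0.24). Of all genes tested in these classes, 10.8%, 16.3% and 14.5% did not overlap in either direction. The opposite directions were not tested against each other. In microglia-like nuclei the values were 0.958, 0.940 and 0.954 in wild-type and 1.15, 1.11 and 0.969 in heterozygous ones.

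Cdh20 had every heterozygous library above every wild-type library in D2 MSN-like nuclei (0.31) and below in astrocyte-like nuclei (-0.36), again a difference that was not tested. A lack of overlap was met by 14.5% and 12.4% of all genes tested in these classes. The D2 level of Cdh20 was low, at 0.0202, 0.0282 and 0.0320 in wild-type and 0.0335, 0.0363 and 0.0358 in heterozygous ones, and the difference there was 0.15 with a pseudocount of 0.05 and 0.17 without wild-type replicate 1.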

How the results depend on the processing

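No named difference changed sign under the alternatives run. For the 10 comparisons with called members, 97 of 100 recomputed counts lay within 1.5 times the main count, and the genotype counts of 0 say nothing of stability. Members called by genotype in D1 MSN-like nuclei numbered 0, but 3 with array weights and 0 to 4 with 1 library left out (4 without wild-type replicate 1). In D2 MSN-like nuclei array weights called 2. The difference between the D1 and D2 effects had 0 to 2 called with 1 library left out. D1 against D2 MSN-like nuclei called 24 of 29 members with the library as a block (35.7% of all genes tested). The count was 22 to 25 with 1 library left out and 13 with no replicate block. Endothelial-like against mural-like nuclei called 3 of 17 members (39.6% of all genes tested), and 3 to 4 with 1 library left out. With no filter on low values, where more members were tested, 10 were called, and 5 with size-factor scaling. The cause was not tested. Shares of all genes for the counts at other settings stand above. None is given for the ranges between classes with 1 library left out, which describe stability alone. With the replicate number as a block, the genotype fits called 0 members in each class and over all nuclei. Among genes with an unadjusted p under 0.05, size-factor scaling lowered the share with a positive difference from 62.6% to 27.2% over all nuclei, 56.6% to 34.6% in D1, 47.7% to 32.3% in D2 MSN-like and 52.3% to 15.2% in OPC-like nuclei. In 6 other classes it fell by over 10 points (48% to 35.7% in astrocyte-like, 44.8% to 34.6% in cholinergic interneuron-like, 54.2% to 36.9% in committed precursor-like, 61.3% to 41.7% in mural-like, 44.6% to 33.5% in microglia-like, 47.1% to 35% in oligodendrocyte-like). It moved the median of all genes by over 0.1 in OPC-like nuclei alone (0.03 to -0.10). The depth before correction is unknown, and OPC-like and cholinergic interneuron-like nuclei numbered as few as 25 in a library.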

Other observations

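Unnamed clusters held members at high levels as well. Cluster 6, led by Baiap3, Glra3 and Sim1, had Cdh18 at 10.8 and Pcdh15 at 11.1 per nucleus. Cluster 24, with Lhx8 and Gbx1 among its leading genes, had Pcdh15 at 17.8 and Cdh18 at 10.5, and cluster 23, with Lhx9, Lef1 and Shox2, had Cdh12 at 7.34. Cluster 42, with both mural and endothelial marker genes, had Pcdh19 at 1.06 and Pcdh1 at 0.736, above each tested class mean, and choroid plexus-like nuclei had Fat1 at 0.631. These are means over libraries with no test. Cluster 30 had Cdh7 at 1.50 in heterozygous replicate 3, the only library with at least 20 of its nuclei (263, where the others held 2 to 5 each).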
